A study of Mus musculus with 42 samples.

Results

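The enzymes that write, copy and remove DNA methylation were followed from the pluripotent inner cell mass (ICM) of mouse blastocysts to embryonic stem cells (ESCs). The set was given as 9 genes, namely Dnmt1, Dnmt3a, Dnmt3b, Dnmt3l, Uhrf1, Tet1, Tet2, Tdg and Apobec1, and every bead array probe annotated to 1 of these symbols was taken. The Mouse WG-6 array of the first run carried 14 such probes among 45281, for 8 of the genes, and the MouseRef-8 v2.0 array of the second run carried 12 among 25697, for 7 of the genes. No probe on either array was annotated to Tet2, and none on the second array to Tet1, so these were not measured there.

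Methylation of cytosine in CpG pairs is set by the de novo enzymes Dnmt3a and Dnmt3b, which work with the catalytically inactive partner Dnmt3l. It is copied at each round of replication by Dnmt1, which Uhrf1 guides to hemimethylated DNA. Tet enzymes oxidize methylcytosine, Tdg excises the oxidized bases, and Apobec1 is a cytidine deaminase known best for RNA editing. The genome of the blastocyst is poorly methylated, and the epiblast gains methylation around implantation.

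The first run used BALB/c embryos, in 3 biological replicates of ICMs isolated by immunosurgery at embryonic day 3.5 (ICM BALB/c), of whole blastocyst outgrowths (BO-3 to BO-9, after the day of culture, which was 3, 5, 7 or 9), and of ESCs at passage 20 (ESC BALB/c). The second run used embryos labelled hybrid (B6 x C3H), for which the study's methods list F1 hybrids and also crosses of them with CD1 or OG2 mice without saying which sample came from which, in 2 biological replicates of isolated ICMs (ICM hybrid), of ICM outgrowths (IO-0.5 to IO-5, likewise after the day, which was 0.5, 1, 2, 3 or 5), and of ESCs at passages 2, 4 and 15 (P2, P4 and P15). All of these outgrowths and ESCs grew without serum in N2B27 with 1000 U/mL LIF and R2i, a pair of inhibitors made of 1 µM PD0325901 against MEK and 10 µM SB431542 against the TGF-β type I receptor. Outgrowths on days 1 and 3 with SB431542 and LIF but without PD0325901 (SBIO-1 and SBIO-3) were the negative control. Each embryo sample was a pool, of 20 to 30 ICMs or outgrowths in the first run and of 30 to 40 in the second, and its RNA was amplified in 2 rounds. A further pair of arrays from BALB/c ICMs, run beside the hybrid samples and not mentioned in the study's methods, is called the second set here.

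Levels are given as log2 of the background-corrected and quantile normalized intensity of a probe, so a difference of 1 is a 2-fold difference, and the level of 1 probe says nothing against that of another. A probe was detected on an array when its detection p, which compares it with the negative control beads of that array, was under 0.05. A gene was called between groups when it differed at least 2-fold with an adjusted p (limma, Benjamini-Hochberg over all genes tested) no higher than 0.05 (first run) or 0.01 (second run), with p-values that measure the spread between these pooled replicates. Of the members, 7 passed the detection filter among 11450 genes in the first run and 6 among 10013 in the second. The 3 probes of Dnmt3a on the first array and its 2 probes on the second were not detected on any of the 17 and 22 arrays fitted, with levels from 4.18 to 4.99. The other silent probes were 1 of 2 for Tdg and 1 of 2 for Uhrf1, not detected on any array of either run, and what they leave unmeasured cannot be told from these arrays.

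The share of all probes detected on an array ran from 28.9% to 35.4% in the first run, with BO-3 replicate 1 left out (26.2%, a replicate that the study's figure of these samples does not show). In the second run it was 24.2% and 18.0% on the hybrid ICM arrays and 33.0% to 45.6% on the other 20. The labelled cell types were checked with marker genes. All 7 markers of pluripotent epiblast (Pou5f1, Sox2, Nanog, Esrrb, Klf4, Zfp42 and Tdgf1) were detected on every array of the first run, and on every array of the second but those of ICM hybrid (4 and 6 of 7) and SBIO-3 (5 and 6 of 7). Of 9 markers of trophectoderm, 8 were detected on every ICM BALB/c and BALB/c outgrowth array and 5 to 7 on the ESC BALB/c arrays, against 4 on the ICM hybrid arrays, 7 or 8 on the hybrid outgrowth arrays and 2 to 5 on the hybrid ESC arrays. Of 9 markers of primitive and visceral endoderm, 6 or 7 were detected on the ICM BALB/c arrays, 7 or 8 on the BALB/c outgrowth arrays and 4 to 8 on the ESC BALB/c arrays, against 6 on the ICM hybrid arrays, 6 to 9 on the hybrid outgrowth arrays and 2 to 6 on the hybrid ESC arrays. Markers of other cell types were thus present in the ICM, outgrowth and ESC samples of both runs. In bulk samples fewer cells of a type and less RNA per cell cannot be told apart.

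Dnmt1, the maintenance methyltransferase, had its lowest group mean in the ICMs in both runs. Its level was 9.16, 9.41 and 9.31 on the ICM BALB/c arrays, 10.07 and 10.15 on BO-3, 10.92, 10.61 and 10.61 on BO-9, and 10.67, 10.34 and 10.49 on ESC BALB/c. Every array of BO-3 and later stages lay above every ICM array. ESC BALB/c exceeded ICM BALB/c by 1.21 log2 (SE 0.14, 2.31-fold, adjusted p = 1.94e-06, n = 3 and 3), a comparison in which 25.7% of all genes were called. BO-3 already exceeded the ICMs by 0.82 log2 (SE 0.16, adjusted p = 0.000566), below the 2-fold limit.

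In the hybrid series the group means of Dnmt1 increased up to IO-2. It stood at 8.49 and 7.02 on the ICM hybrid arrays (the second not detected), at 8.62 and 7.99 on IO-0.5, at 9.34 and 9.26 on IO-1, at 10.21 and 10.54 on IO-2 and at 10.79 and 10.14 on IO-5. The ICM and IO-0.5 arrays overlapped, IO-1 lay above both groups, and IO-2 above IO-1. IO-5 exceeded IO-0.5 by 2.16 log2 (SE 0.36, 4.47-fold, adjusted p = 0.000423, n = 2 and 2), where 14.8% of all genes were called. In P15 (10.01 and 9.85) it was 2.18 log2 above ICM hybrid (SE 0.36, adjusted p = 0.000101), where 48.1% of all genes were called. The hybrid ICM arrays were also the dimmest, and with the share of detected probes as a covariate, an alternative added after the data were seen, that difference was 0.90 (adjusted p = 0.446). From IO-5 to P15 Dnmt1 differed by -0.53 log2 (95% interval -1.31 to 0.24), not called.

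Uhrf1, the ring finger protein that brings Dnmt1 to newly copied DNA, had a narrow range in the BALB/c samples. The ICM BALB/c arrays read 11.49, 11.46 and 11.46, BO-5 12.02, 12.05 and 11.95, BO-9 12.37, 12.18 and 12.29, and ESC BALB/c 12.40, 12.51 and 12.62. ESC BALB/c lay 1.04 log2 above ICM BALB/c (SE 0.13, 2.06-fold, adjusted p = 3.57e-06) with no overlap, close to the 2-fold limit. Without ESC BALB/c replicate 3 the difference was 0.98, under that limit.

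In the hybrid samples Uhrf1 took another course, since its ICM level was not the lowest. It read 11.99 and 12.24 on ICM hybrid, 11.24 and 11.64 on IO-0.5, 12.57 and 12.62 on IO-2, 12.68 and 12.36 on IO-5 and 11.86 and 11.74 on P15. The lowest values of all 22 arrays were those of SBIO-3, at 10.95 and 10.91. IO-5 exceeded IO-0.5 by 1.08 log2 (SE 0.22, adjusted p = 0.00166), and 0.87 without IO-0.5 replicate 1 or 0.93 without IO-5 replicate 1, under the limits. P15 against ICM hybrid gave -0.32 log2 (SE 0.22, adjusted p = 0.216), not called, and -1.09 (adjusted p = 0.000554) with cyclic loess in place of quantile normalization, which called it.

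Transcription of Uhrf1 and Dnmt1 is known to rise in S phase. A promoter window of each is shown because it holds an E2F word, the motif of factors that drive genes of replication. Sequences are from RefSeq on GRCm38.p6, 250 bases before to 50 bases after an annotated start site, written 5′ to 3′ on the gene's strand. All 9 genes had at least 1 window, 16 in all. Words were searched on both strands, namely GGGCGG as the GC box, CCAAT as the box of that name, TATAAA as the TATA box, ATGCAAAT as the octamer of Pou factors, TGACGTCA as the CRE, and for E2F any of TTTCCCGC or TTTGGCGC or TTTCGCGC, and are in capitals below. Matches of 1 motif may overlap, as in a word read on both strands. An E2F word was found in 1.84% of 32851 promoters, a GC box in 35.7% and CCAAT in 37.4%. Of genes with several start sites, the window with the most GC boxes is shown, a choice made after the matches were counted.
Uhrf1, chr17:56304063-56304362, plus strand: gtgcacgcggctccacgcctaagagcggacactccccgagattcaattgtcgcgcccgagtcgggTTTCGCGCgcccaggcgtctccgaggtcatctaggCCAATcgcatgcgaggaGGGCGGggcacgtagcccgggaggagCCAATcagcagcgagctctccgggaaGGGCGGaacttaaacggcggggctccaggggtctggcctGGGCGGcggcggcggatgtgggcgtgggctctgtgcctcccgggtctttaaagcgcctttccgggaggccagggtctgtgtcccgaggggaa
Dnmt1, chr9:20952574-20952873, minus strand: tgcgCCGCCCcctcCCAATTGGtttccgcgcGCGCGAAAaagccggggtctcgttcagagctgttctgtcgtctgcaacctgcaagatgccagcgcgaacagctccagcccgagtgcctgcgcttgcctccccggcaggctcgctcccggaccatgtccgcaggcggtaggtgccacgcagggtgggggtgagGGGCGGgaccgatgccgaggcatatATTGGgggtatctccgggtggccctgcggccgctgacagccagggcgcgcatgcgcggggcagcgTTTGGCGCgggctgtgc
The Uhrf1 window holds 3 GC boxes, 2 CCAAT words and 1 E2F word, and the Dnmt1 window 2, 3 and 2. Each has 33 CpG pairs, a number that 8.56% of all promoters reach, against a median of 7. The other Uhrf1 window has 12 CpG pairs and no E2F word. The other Dnmt1 windows have 2 and 12 pairs and no E2F word.

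Beside these 2 genes, 14 genes of S phase and replication were read as a list. In ESC BALB/c against ICM BALB/c, 4 of 13 tested were called higher and none lower, where 13.9% of all genes were called higher and 11.7% lower, with a median change of 0.29 log2 against 0.00 over all genes. They were Ccne1, the cyclin that starts S phase (not detected on the ICM arrays, at least 2.50-fold higher, adjusted p = 7.35e-07), Mcm3 of the replicative helicase (1.46 log2, SE 0.33, adjusted p = 0.00136), Top2a, the topoisomerase of dividing cells (1.28, SE 0.20, adjusted p = 4.99e-05), and Pcna, the sliding clamp (1.12, SE 0.22, adjusted p = 0.000343). The summed level of the S phase genes overlapped, at 14.86 to 14.92 in ICM BALB/c and 14.85 to 14.95 in ESC BALB/c. In P15 against ICM hybrid 8 of 12 genes of the list were called higher, where 24.2% of all genes were, with a median of 1.60 against 0.04 over all genes. Their summed level was 14.02 to 14.12 in ICM hybrid and 14.95 to 15.01 in P15. The part of replication or of array brightness in the levels of Dnmt1 and Uhrf1 was not tested.

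**Figure D1:**
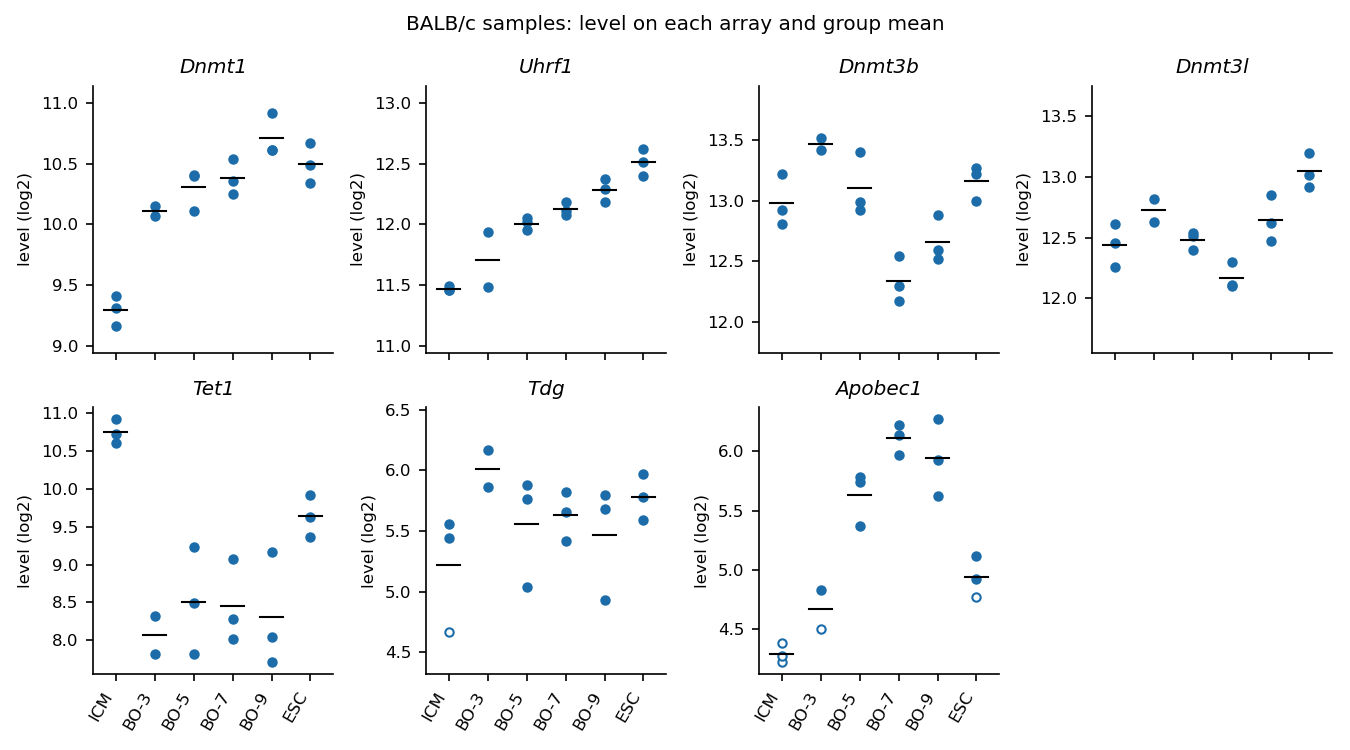
Level (log2) of the 7 members detected in the first run on each BALB/c array, by stage. Points are arrays (open where not detected), bars are group means, and each panel has its own scale. Tet1 falls from 10.92, 10.61 and 10.73 in the ICMs to 8.32 and 7.81 in BO-3, while the ICM arrays hold the lowest values of Dnmt1.

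Dnmt3b, the de novo methyltransferase of the peri-implantation epiblast, was among the brightest probes of the arrays (ranks 24 to 492 of 25697 in the second run and 101 to 440 of 45281 in the first). In the BALB/c series it read 13.22, 12.81 and 12.92 in the ICMs, 13.42 and 13.52 on BO-3, 12.17, 12.54 and 12.30 on BO-7, and 13.27, 13.00 and 13.22 on ESC BALB/c. The BO-7 arrays lay below all ICM, BO-3 and ESC arrays. ESC BALB/c and ICM BALB/c overlapped, with a difference of 0.18 log2 (95% interval -0.17 to 0.53). From BO-3 to BO-9 it differed by -0.81 (SE 0.19, adjusted p = 0.00776), short of 2-fold, and the ESCs differed from BO-9 by 0.50 (SE 0.17, adjusted p = 0.0264). A second, dimmer probe of Dnmt3b (ILMN_3114377) gave -1.16 (SE 0.30, adjusted p over all kept probes = 0.0175) and 1.13 (SE 0.26, adjusted p over all kept probes = 0.00327) in the same comparisons, both past the limits.

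In the hybrid series Dnmt3b rose over the first days. It read 11.72 and 11.40 on ICM hybrid, 12.04 and 11.80 on IO-0.5, 12.50 and 12.42 on IO-1, 13.21 and 13.48 on IO-2 and 13.57 and 13.61 on IO-3. These 5 groups did not overlap, and each lay above the group before it, an order not counted over all genes. It then read 13.63 and 12.87 on IO-5, 12.87 and 13.33 on P2, 13.13 and 12.77 on P4 and 12.70 and 12.67 on P15. For the dimmer probe ICM hybrid (5.88 to 7.47) overlapped IO-0.5 (7.40 to 7.41), and IO-2 (8.99 to 9.17) overlapped IO-3 (8.97 to 9.28). That probe was not called in IO-3 against IO-1 (1.02, adjusted p over all kept probes = 0.0557). Nor was it in IO-5 against IO-0.5 (1.27, adjusted p = 0.0131) or P15 against ICM hybrid (0.88, adjusted p = 0.0361). With the brighter probe IO-3 exceeded IO-1 by 1.13 log2 (SE 0.26, 2.19-fold, adjusted p = 0.00907), where 7.29% of all genes were called, and IO-5 exceeded IO-0.5 by 1.33 (SE 0.26, adjusted p = 0.00162). The first of these calls was lost when any 1 of the 4 arrays was left out (adjusted p from 0.00479 to 0.0689 over its alternatives), and the second without IO-0.5 replicate 2 (1.20, adjusted p = 0.0158) or IO-5 replicate 1 (0.96, adjusted p = 0.0321). P15 lay 1.13 log2 above ICM hybrid (SE 0.26, 2.18-fold, adjusted p = 0.00163), and 0.52 (adjusted p = 0.595) with the share of detected probes as a covariate or 0.24 (adjusted p = 0.426) with cyclic loess. Without ICM hybrid replicate 2, P15 replicate 1 or P15 replicate 2 it was 0.96, 1.13 and 1.14 (adjusted p = 0.0172, 0.0128 and 0.0114), none of them called.

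Dnmt3l, the partner that stimulates Dnmt3a and Dnmt3b, moved with Dnmt3b in the hybrid samples. It read 12.00 and 11.98 on ICM hybrid, 12.16 and 12.19 on IO-0.5, 12.88 and 12.70 on IO-1, 13.63 and 13.44 on IO-2, 13.53 and 13.70 on IO-3 and 13.06 and 13.11 on IO-5. With passage it read 13.40 and 13.23 on P2, 12.83 and 13.01 on P4 and 12.50 and 12.61 on P15. These groups did not overlap, an order not counted over all genes. Neither P4 against P2 (adjusted p = 0.269) nor P15 against P4 (adjusted p = 0.378) was called. P15 lay 0.76 log2 below P2 (SE 0.19, adjusted p = 0.00821), short of 2-fold. The second Dnmt3l probe (ILMN_3112268) gave -1.00 (SE 0.21, adjusted p over all kept probes = 0.00302), on the limit and not called either. In the BALB/c series Dnmt3l read 12.46, 12.26 and 12.61 in the ICMs and 13.20, 12.92 and 13.02 in the ESCs, a difference of 0.61 (SE 0.14, adjusted p = 0.00163), not called. The lowest BALB/c group was BO-7 (12.30, 12.11 and 12.10), as for Dnmt3b.

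The promoters of these genes are shown because Dnmt3b and Dnmt3l moved together while their start sites differ in CpG content.
Dnmt3b, chr2:153649199-153649498, plus strand: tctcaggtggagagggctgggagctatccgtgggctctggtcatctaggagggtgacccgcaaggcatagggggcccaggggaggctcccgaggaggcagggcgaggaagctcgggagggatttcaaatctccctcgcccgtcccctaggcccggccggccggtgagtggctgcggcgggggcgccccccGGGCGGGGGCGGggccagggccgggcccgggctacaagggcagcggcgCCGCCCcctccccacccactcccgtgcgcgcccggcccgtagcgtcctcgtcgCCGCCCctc
Dnmt3l, chr10:78049592-78049891, plus strand: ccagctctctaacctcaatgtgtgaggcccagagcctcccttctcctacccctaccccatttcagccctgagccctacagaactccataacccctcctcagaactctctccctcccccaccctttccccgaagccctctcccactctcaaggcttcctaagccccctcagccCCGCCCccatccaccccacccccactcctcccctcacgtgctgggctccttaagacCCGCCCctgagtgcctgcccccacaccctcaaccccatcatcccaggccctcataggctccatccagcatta
The Dnmt3b window has 30 CpG pairs and a GC content of 76%, and 11.7% of all promoters reach as many pairs. It holds 4 GC boxes. The Dnmt3l window has 4 CpG pairs, which 68.6% of promoters reach, and 2 GC boxes, and the other start sites of Dnmt3l have 6 and 3 pairs. Neither holds a match to the other motifs searched. The capitals mark GC boxes, on either strand, and no methylation was measured at these sites in the arrays.

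**Figure D2:**
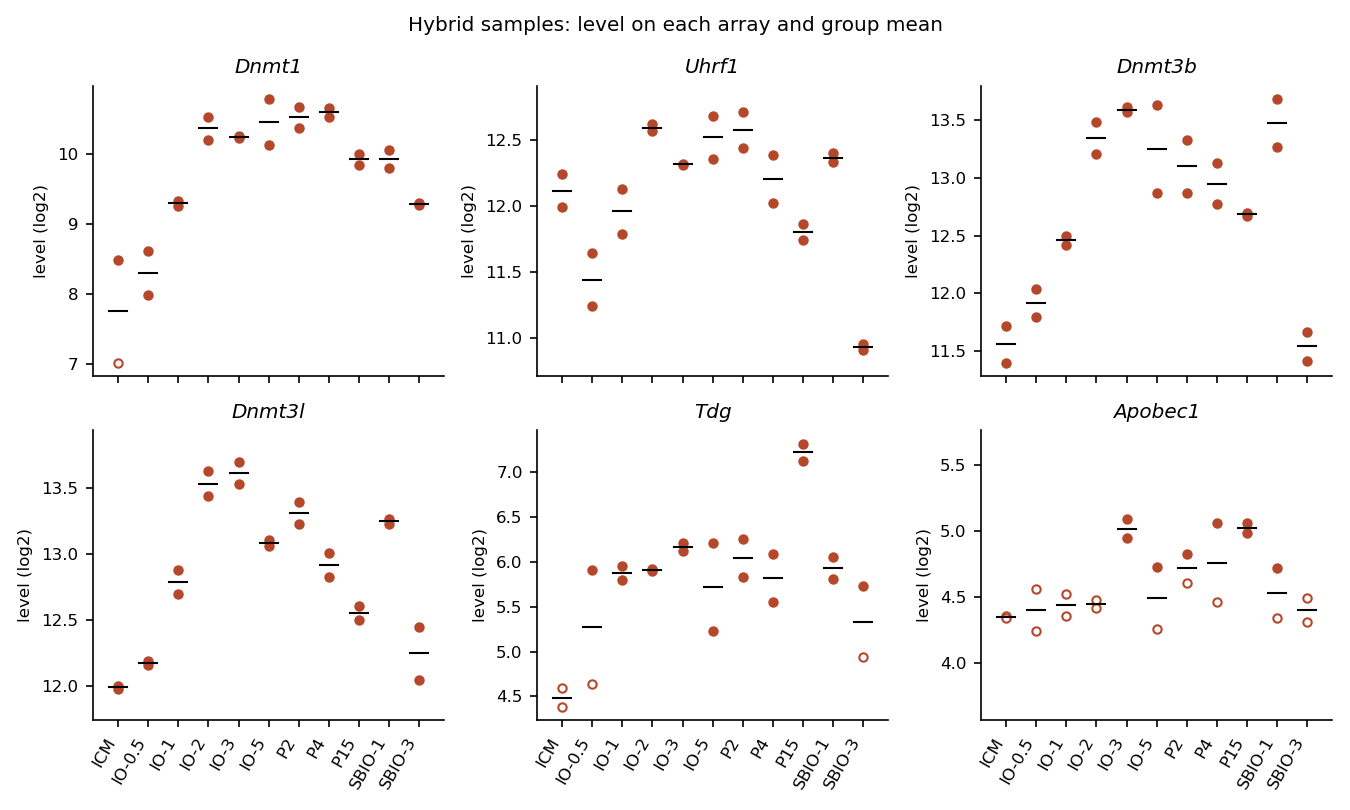
Level (log2) of the 6 members detected in the second run on each hybrid array, by stage, passage and medium. Points are arrays (open where not detected), bars are group means, and each panel has its own scale. Among the R2i outgrowths Dnmt3b and Dnmt3l are highest in IO-2 and IO-3 by group mean, SBIO-1 reaches 13.68 for Dnmt3b, and SBIO-3 lies at 11.67 and 11.42 for Dnmt3b.

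Tet1, the oxidase of methylcytosine in pluripotent cells, was measured in the BALB/c run only and its group means spanned more than those of any other member there. It read 10.92, 10.61 and 10.73 in the ICMs and 8.32 and 7.81 on BO-3, and stayed at 7.71 to 9.23 on the BO-5, BO-7 and BO-9 arrays. The ESC BALB/c arrays read 9.37, 9.92 and 9.63, above every outgrowth array and below every ICM array. BO-3 lay 2.69 log2 below ICM BALB/c (SE 0.41, 6.46-fold, adjusted p = 4.29e-05), and Tet1 was the only member called in that comparison, in which 20.5% of all genes were. ESC BALB/c lay 1.34 above BO-9 (SE 0.36, 2.53-fold, adjusted p = 0.00816), where 13.7% of all genes were called, and 1.11 below ICM BALB/c (SE 0.36, 2.16-fold, adjusted p = 0.0172). The last call was lost without ICM BALB/c replicate 1 or ESC BALB/c replicate 1 (-1.02 and -0.97, adjusted p from 0.000506 to 0.0651 over its alternatives), and BO-3 replicate 1 read 6.44 when included.

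Replicate 2 was the highest Tet1 array of BO-5 (9.23 against 7.81 and 8.49), of BO-7 (9.07 against 8.02 and 8.28), of BO-9 (9.16 against 7.71 and 8.04), of ESC BALB/c (9.92 against 9.37 and 9.63) and of the 2 BO-3 arrays used, and the lowest of ICM BALB/c (10.61 against 10.92 and 10.73). The Tet1 spread within BO-5, BO-7 and BO-9 (SD 0.71, 0.54 and 0.76) was wider than in the ICMs (SD 0.16). Levels of cell type markers also differed between the stages. The summed level of the 9 trophectoderm markers was 14.17 to 14.36 in the ICMs, 14.40 to 14.93 in BO-3, 14.18 to 14.42 in BO-9 and 13.62 to 13.79 in the ESCs, with Hand1 not detected in any BALB/c group. That of the 3 primed epiblast markers was 7.32 to 8.07 in the ICMs, 11.51 to 12.02 in BO-3, 9.11 to 10.53 in BO-9 and 9.23 to 9.29 in the ESCs. The 9 primitive and visceral endoderm markers summed to 13.70 to 13.89 in the ICMs and 14.21 to 14.41 in BO-3. They summed to 13.42 to 13.71 in BO-9 and 8.92 to 11.46 in the ESCs, with Gata4 not detected in any BALB/c group. The 7 pluripotent epiblast markers summed to 13.61 to 13.76 in the ICMs and 13.37 to 13.51 in BO-3. Their sum was 14.36 to 14.63 in BO-9 and 14.45 to 14.72 in the ESCs. The part of these cell types in the level of Tet1 was not tested.

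Tdg, the glycosylase that removes oxidized and deaminated bases, was dim, with levels of 4.67 to 6.17 in the first run. It was detected on 16 of 17 arrays there, and no comparison called it. ESC BALB/c against ICM BALB/c gave 0.56 (95% interval -0.01 to 1.12). In the hybrid samples P15 stood apart at 7.32 and 7.12, above every other array of the run, whose values reached 6.25. Tdg was not detected on the ICM hybrid arrays (4.59 and 4.38), and P15 was at least 1.24-fold higher, which sets its mean against the dimmest signal that those arrays could detect. The adjusted p of 2.3e-05 is that of the limma test of the levels themselves and not of this bound. With the share of detected probes as a covariate the difference in level was not called (adjusted p = 0.127). Against IO-5 (6.21 and 5.23) the difference was 1.50 log2 (SE 0.39, adjusted p = 0.0112), against P2 (6.25 and 5.83) 1.18 (SE 0.39, adjusted p = 0.035) and against P4 (6.09 and 5.55) 1.40 (SE 0.39, adjusted p = 0.0701), and none of these was called. The comparisons share the P15 arrays. Of the 6 members tested none was called in P15 against IO-5 or in P15 against P2, where 12% and 12.8% of all genes were. The dimmer Dnmt3b probe fell by 1.48 log2 from P2 (8.96 and 9.10) to P15 (7.60 and 7.51), past the limits (SE 0.34, 2.79-fold, adjusted p over all kept probes = 0.00545), where the brighter probe gave -0.41 (SE 0.26, adjusted p = 0.299). Cyclic loess in place of quantile normalization gave 1.42 (adjusted p = 0.000894) and 1.31 (adjusted p = 0.00147) for Tdg in these, past the limits, and without IO-5 replicate 1 the former was 1.96 (adjusted p = 0.00474).

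Apobec1, the deaminase of apolipoprotein B mRNA, was near the floor in the ICMs of both runs. On the BALB/c arrays it read 4.22, 4.27 and 4.38 in the ICMs (not detected), 4.83 and 4.50 on BO-3, 5.78, 5.37 and 5.74 on BO-5, 5.97, 6.22 and 6.14 on BO-7, 5.93, 5.62 and 6.27 on BO-9 and 5.12, 4.77 and 4.92 on ESC BALB/c. The outgrowths of days 5 to 9 lay above all other arrays. BO-9 exceeded BO-3 by 1.28 log2 (SE 0.19, 2.42-fold, adjusted p = 0.000239), the only call among the members where 5.42% of all genes were called. With no background correction that difference was 0.43 and with an offset of 50 it was 0.69, under the 2-fold limit. The ESCs lay 1.00 below BO-9 (SE 0.17, adjusted p = 0.000224). The latter sits on the 2-fold limit and was lost without BO-9 replicate 3, ESC BALB/c replicate 2 or ESC BALB/c replicate 3 (changes of -1.24 to -0.35 over its alternatives). In the hybrid samples it was detected on 8 of 22 arrays, with levels of 4.24 to 5.09.

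No member was called between neighbouring outgrowth days, between IO-5 and P2, or between neighbouring passages. These steps were BO-5 against BO-3, BO-7 against BO-5 and BO-9 against BO-7 in the first run, in which 0.507%, 0.603% and 0.934% of all genes were called, and IO-1 against IO-0.5, IO-2 against IO-1, IO-3 against IO-2, IO-5 against IO-3, P2 against IO-5, P4 against P2 and P15 against P4 in the second, in which 3.4%, 1.8%, 0.0999%, 0.16%, 1.32%, 0.32% and 0.33% were. Nor was any member called in IO-0.5 against ICM hybrid, where 23.8% of all genes were. There Uhrf1 differed by -0.68 (SE 0.22, adjusted p = 0.0223), or by -1.47 (adjusted p = 0.000299) with cyclic loess, which called it, and Dnmt1 by 0.55 (95% interval -0.23 to 1.32), or by 1.29 (adjusted p = 0.0031), a call, without ICM hybrid replicate 1.

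The negative control asks what MEK inhibition adds to SB431542, and Dnmt3b, Dnmt3l and Uhrf1 were called higher with it on day 3. There Dnmt3b read 13.57 and 13.61 in IO-3 against 11.67 and 11.42 in SBIO-3, a difference of 2.05 log2 (SE 0.26, 4.13-fold, adjusted p = 7.22e-05). Dnmt3l read 13.53 and 13.70 against 12.45 and 12.05, a difference of 1.36 (SE 0.19, 2.57-fold, adjusted p = 0.000117). Uhrf1 read 12.31 and 12.32 against 10.95 and 10.91, a difference of 1.38 (SE 0.22, 2.61-fold, adjusted p = 0.000347). In all 3 genes the media did not overlap, as in 62.7% of all genes. Called higher were 3 of 6 members, where 6.2% of all genes were called higher and 11.1% in either direction. Dnmt1 differed by 0.96 (SE 0.36, adjusted p = 0.071), Tdg by 0.83 (SE 0.39, adjusted p = 0.141) and Apobec1 by 0.62 (SE 0.24, adjusted p = 0.0739), none of them called.

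On day 1 the values ran the other way. Dnmt3b read 12.50 and 12.42 in IO-1 against 13.68 and 13.27 in SBIO-1, a difference of -1.01 log2 (SE 0.26, adjusted p = 0.0368), not called at the limit of this run. Dnmt3l read 12.88 and 12.70 against 13.27 and 13.23 (-0.46, SE 0.19, adjusted p = 0.199), and Uhrf1 11.79 and 12.13 against 12.33 and 12.40 (-0.41, SE 0.22, adjusted p = 0.34). No IO-1 array reached the SBIO-1 arrays for these genes, and the groups did not overlap in 54.6% of all genes. None of the 6 members was called, where 2.52% of all genes were.

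**Figure D3:**
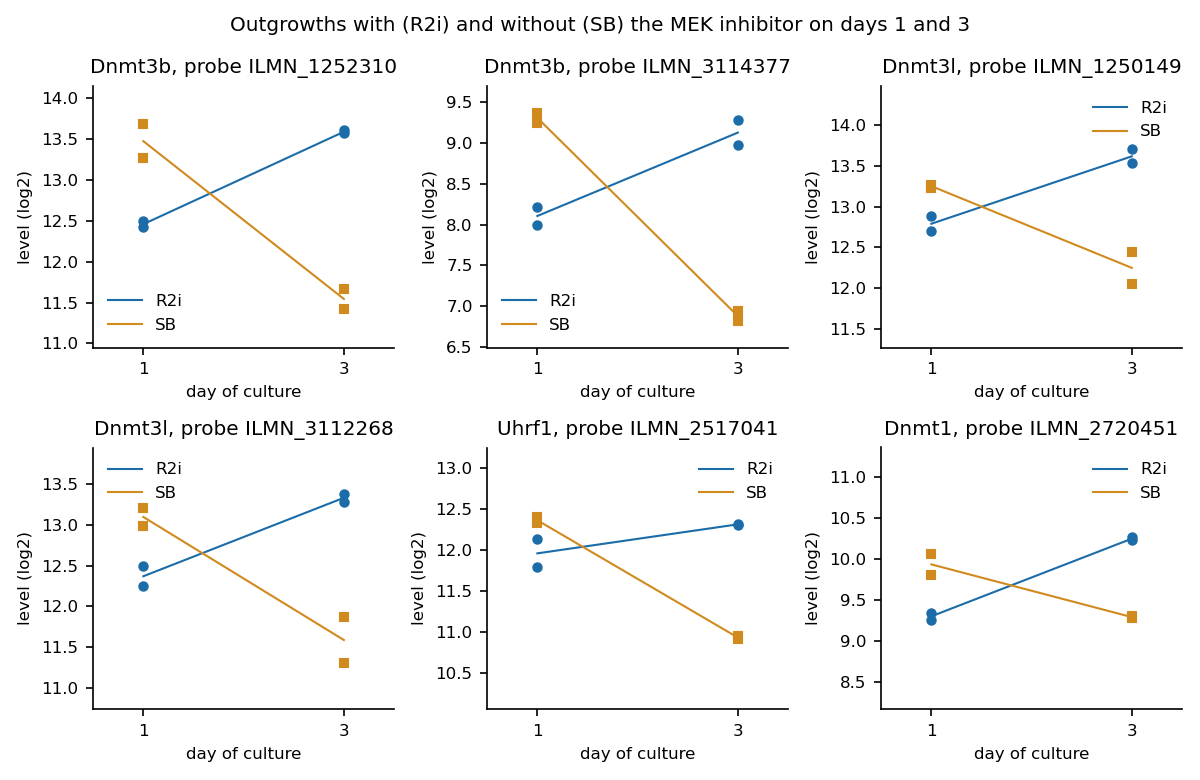
Level (log2) of each probe of Dnmt3b, Dnmt3l, Uhrf1 and Dnmt1 in outgrowths with R2i (circles) and with SB431542 only (squares) by day of culture. Points are arrays, lines join group means, and panels have their own scales. The lines cross between day 1 and day 3 for every probe shown.

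The change of the medium difference from day 1 to day 3, tested as an interaction, was 3.05 log2 for Dnmt3b (SE 0.37, adjusted p = 6.79e-05), 1.82 for Dnmt3l (SE 0.26, adjusted p = 0.000303) and 1.79 for Uhrf1 (SE 0.31, adjusted p = 0.000971), and 10.2% of all genes were called. That of Dnmt1 was 1.60 (SE 0.51, adjusted p = 0.0374), not called. Within the SB431542 outgrowths Dnmt3b fell by 1.92 log2 from day 1 to day 3 (SE 0.26, 3.80-fold, adjusted p = 0.000153) and Uhrf1 by 1.43 (SE 0.22, 2.70-fold, adjusted p = 0.000352), while Dnmt3l differed by -0.99 (SE 0.19, adjusted p = 0.00206), just short of 2-fold, and by -1.19 without SBIO-3 replicate 1, past it. The second Dnmt3l probe fell by 1.50 in that comparison (SE 0.21, 2.83-fold, adjusted p over all kept probes = 0.000194), past the limits. Called lower were 2 of 6 members, where 3.69% of all genes were called lower and 7.12% in either direction. These comparisons share arrays and are not independent of one another. The dimmer probe of Dnmt3b gave an interaction of 3.45 (SE 0.48) and the second probe of Dnmt3l 2.46 (SE 0.29).

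Other values moved with the medium. The share of detected probes was 33.0% and 43.4% in IO-1 against 43.3% and 44.0% in SBIO-1, and 42.4% and 43.8% in IO-3 against 33.5% and 36.7% in SBIO-3. With that share as a covariate the interaction was 2.63 for Dnmt3b (adjusted p = 0.00602) and 2.07 for Dnmt3l (adjusted p = 0.00274), and 1.48 for Uhrf1 (adjusted p = 0.0446), no longer called. The summed level of the 7 pluripotent epiblast markers was 12.70 to 12.77 in IO-3 and 10.40 to 11.32 in SBIO-3, where Sox2 was not detected. That of the 9 endoderm markers was 13.91 to 14.09 in IO-3 and 15.23 on both SBIO-3 arrays, and that of the 9 trophectoderm markers 12.70 to 12.84 and 13.94 to 14.03, with Hand1 not detected in either and Gata4 not in IO-3. The 3 primed epiblast markers summed to 10.17 to 10.21 in IO-3 and 6.57 to 7.43 in SBIO-3, and the S phase genes to 14.66 to 14.85 and 14.00 to 14.15. On day 1 the pluripotent sum was 12.98 to 13.01 in IO-1 and 12.32 to 12.37 in SBIO-1, the endoderm sum 13.94 to 13.95 and 14.98 to 15.10, and the trophectoderm sum 14.07 to 14.20 and 11.71 to 11.76. The primed epiblast sum was 5.90 to 6.00 in IO-1, with Fgf5 and Pou3f1 not detected, and 6.97 to 7.08 in SBIO-1, with Fgf5 not detected. The S phase sum was 14.33 on both IO-1 arrays and 14.40 to 14.46 in SBIO-1. The part of these cell types or of replication in the differences was not tested. A fit of only the 4 arrays of day 3 called none of the members at the limit of 0.01 (adjusted p = 0.0105 for Dnmt3b, 0.0332 for Dnmt3l and 0.0228 for Uhrf1). With cyclic loess, Dnmt3l differed by 0.81 on day 3 (adjusted p = 0.0537) and its interaction was 1.10 (adjusted p = 0.0618), neither of them called.

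Over the 11 hybrid group means, the genes with the pattern most like that of each member were sought among 7597 others detected on at least 11 of 22 arrays. For Dnmt3b these were Rpa1, a subunit of the single-strand binding complex of replication (Pearson's r = 0.99), Wdr77 of the Prmt5 methylosome (0.974) and Amz1, a metallopeptidase (0.966). For Dnmt3l they were Rtcb, the RNA ligase (0.964), Rpa1 (0.951) and Dnmt3b itself (0.948). For Uhrf1 they were Pcyt1b, Ywhag and Srsf9 (0.961, 0.944 and 0.938), for Dnmt1 Ergic1, Agap1 and Pop1 (0.986, 0.984 and 0.981), and for Tdg Pex7, Lman1 and Gins3 (0.957, 0.957 and 0.954). Between members, r was 0.836 for Dnmt1 and Dnmt3b, 0.785 for Dnmt3b and Uhrf1, 0.546 for Dnmt1 and Uhrf1 and 0.196 for Uhrf1 and Tdg. All of these group means share arrays and differ in brightness, and r is given as a description.

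Other genes of the pathway were read as lists. Of 10 tested partners and regulators of DNA methylation, 4 were called higher in IO-3 than in SBIO-3 and none lower, where 6.2% of all genes were called higher, with a median change of 0.78 log2 against 0.01 over all genes. They were Cdca7, which acts with the remodeller Hells (2.76, SE 0.30, adjusted p = 1.46e-05), Ehmt1, a histone H3 lysine 9 methyltransferase (2.31, SE 0.55, adjusted p = 0.00751), Dppa3, which protects methylation in the zygote and restrains Uhrf1 (1.84, SE 0.31, adjusted p = 0.000618, with 1 of 2 SBIO-3 arrays detecting it), and Trim28, the corepressor of KRAB zinc finger proteins (1.50, SE 0.28, adjusted p = 0.00144). In ESC BALB/c against ICM BALB/c 3 of 11 were called higher and 2 lower, where 13.9% and 11.7% of all genes were. Cdca7 was higher in the ESCs (2.01, SE 0.17, adjusted p = 3.38e-08), as were Daxx (1.32, SE 0.23) and Ehmt2 (1.09, SE 0.22), and Dppa3 was lower (-1.20, SE 0.28, adjusted p = 0.00152). Trdmt1, a tRNA methyltransferase related to Dnmt enzymes, was not detected in the ESCs and at least 2.28-fold lower there.

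Of 13 tested genes of deamination, oxidation and base excision, 1 was called higher and 1 lower in IO-3 against SBIO-3 (median 0.41), namely Parp1, the poly(ADP-ribose) polymerase of strand break repair (1.66, SE 0.25, adjusted p = 0.000226), and Gadd45g, a stress response gene (-1.16, SE 0.24, adjusted p = 0.00277). Over all genes 6.2% were called higher there and 4.85% lower. In ESC BALB/c against ICM BALB/c 3 of 13 were called higher and 1 lower (median 0.10), beside 25.7% of all genes called in either direction, and Gadd45a had the largest change (4.36, SE 0.51, 20.5-fold, adjusted p = 1.29e-06). Apobec3, a deaminase of retroviral restriction, was not detected in the ICMs and at least 3.40-fold higher in the ESCs, Apex1, the endonuclease of abasic sites, rose by 1.35 (SE 0.27, adjusted p = 0.000465), and Polb, the repair polymerase, fell by 1.37 (SE 0.21, adjusted p = 3.31e-05). Of 5 tested readers of methyl-CpG, Zbtb33 (Kaiso) was called higher in both comparisons (2.10, SE 0.48, in IO-3 and 2.44, SE 0.24, in the ESCs) and Uhrf2 in the second (1.06, SE 0.13). Of 4 genes of methyl donor supply, Mat2b, the regulatory subunit of methionine adenosyltransferase, was called higher in both (2.07, SE 0.27, and 2.49, SE 0.29), and Mtrr, which reactivates methionine synthase, lower in the ESCs (-1.95, SE 0.21). Beside these readers and donor genes, 6.2% of all genes were called higher in IO-3. In the ESCs 13.9% of all genes were called higher and 11.7% lower.

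Germline genes whose promoters are methylated in somatic cells were given as a list of 17. Of 9 tested in the second run, 3 were called higher in IO-3 than in SBIO-3 and none lower, beside 6.2% of all genes called higher (median 1.27 against 0.01 over all genes). Tex14, of germ cell bridges, and Taf7l, a TFIID subunit of the testis, were not detected in SBIO-3 and at least 4.12-fold and 1.87-fold higher in IO-3, and Piwil2, which binds piRNAs, was 2.66 log2 higher (SE 0.32, adjusted p = 3.66e-05), with 1 of 2 SBIO-3 arrays detecting it. These 3 genes were higher in the group in which Dnmt3b, Dnmt3l and Uhrf1 were higher too. The arrays measured no methylation, and a link between these levels was not tested. In ESC BALB/c against ICM BALB/c 1 of 10 was called higher and 3 lower, beside 13.9% and 11.7% of all genes. Asz1 fell by 2.63 (SE 0.27, adjusted p = 2.61e-07), with a signal above background on 1 of 3 ESC arrays, Piwil2 fell by 2.37 (SE 0.18, adjusted p = 9.08e-09) and Stk31 fell by 2.22 (SE 0.17, adjusted p = 6.19e-09) while Syce1 of the synaptonemal complex rose by 1.45 (SE 0.21, adjusted p = 1.5e-05). On day 3 S phase genes had 1 of 12 called, Mcm4 (1.19, SE 0.27, adjusted p = 0.00506), with a median of 0.61. There 6.2% of all genes were called higher and 11.1% in either direction.

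**Figure D4:**
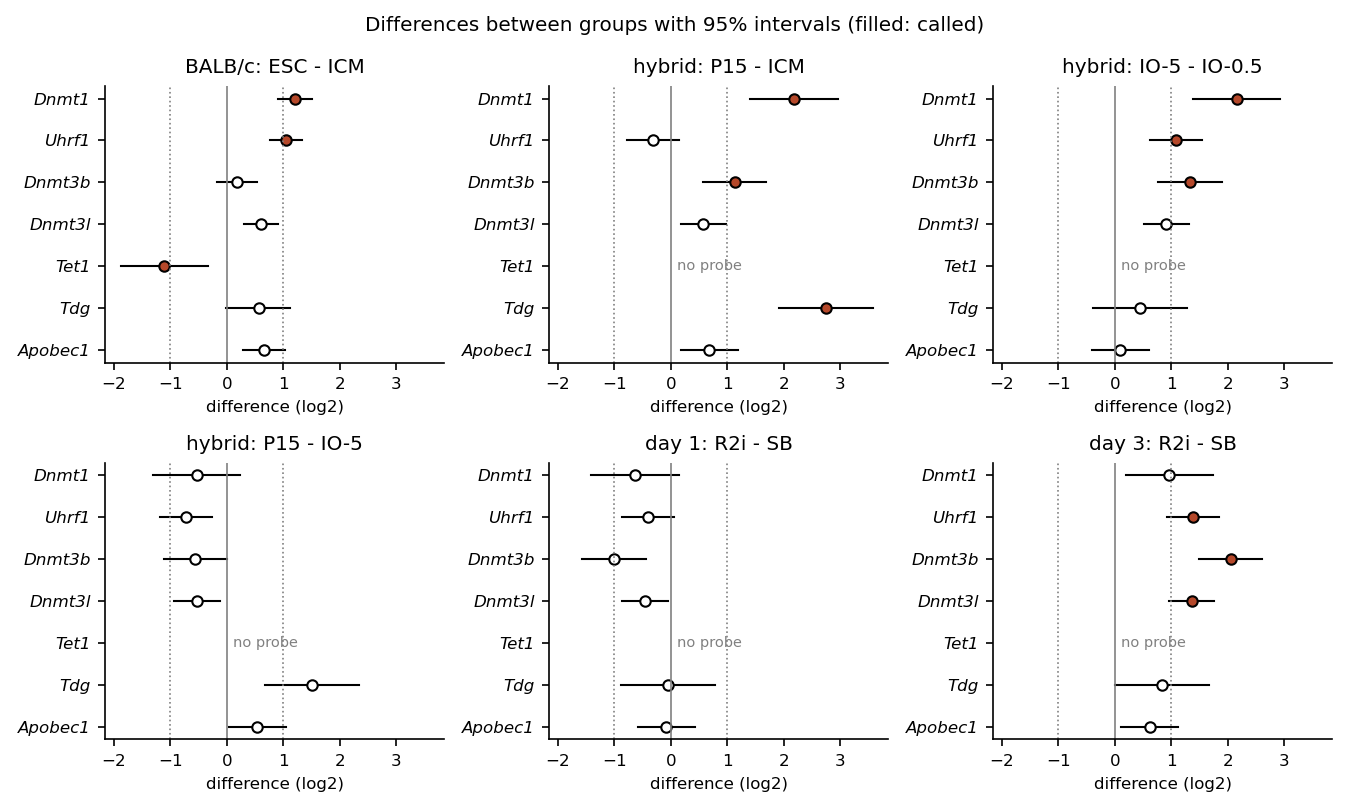
Difference between groups (log2) of each member in 6 comparisons, with 95% intervals from limma. Filled points were called, and dotted lines mark 2-fold. Dnmt1 is called in ESC against ICM of both runs and Uhrf1 in the first only, and the Tdg value of P15 against ICM stands against arrays that did not detect it.

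The courses of the runs were set side by side for the step from ICM to established ESCs, without a test, since arrays, strains and passages differ. Dnmt1 was called higher in the ESCs in both (1.21 in BALB/c and 2.18 in the hybrid samples). Dnmt3b differed by 0.18 and 1.13, Dnmt3l by 0.61 and 0.57, and Uhrf1 by 1.04 and -0.32. Called higher in P15 against ICM hybrid were 3 of 6 members (Dnmt1, Dnmt3b and Tdg), where 24.2% of all genes were called higher. Called higher in IO-5 against IO-0.5 were 3 of 6 (Dnmt1, Dnmt3b and Uhrf1), where 8.47% were.

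The second set of BALB/c ICM arrays, on the array type of the hybrid samples, gave a comparison of strains in a fit of its own. Dnmt3b read 12.50 and 12.73 there against 11.69 and 11.37 on ICM hybrid, a difference of 1.09 log2 (SE 0.26, adjusted p = 0.00251), the only call among 6 members where 33.2% of all genes were called. Dnmt1 read 8.52 and 8.92 against 8.45 and 6.98 (1.01, SE 0.36, adjusted p = 0.0292), Dnmt3l 12.42 and 12.49 against 11.96 and 11.94 (0.50, SE 0.18, adjusted p = 0.0305), Tdg 5.19 and 5.56 against 4.57 and 4.37 (0.90, SE 0.38, adjusted p = 0.0587) and Uhrf1 11.73 and 11.52 against 11.96 and 12.21 (-0.46, SE 0.21, adjusted p = 0.0828). The groups did not overlap for any of these genes, a separation not counted over all genes, and for Uhrf1 the hybrid arrays were the higher ones. The second set detected 37.9% and 37.1% of the probes and ICM hybrid 24.2% and 18.0%, and strain and brightness cannot be told apart in these 4 arrays.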

How the data were processed

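Members and gene lists were chosen with earlier results of these data known. The authors deposited raw intensities of each probe from GenomeStudio, each with a detection p-value, and log2 values made with neqc of limma (versions not given in the sources used here). From the raw intensities neqc was run again for each run (R 4.3.3, limma 3.58.1, offset 16, negative controls inferred from the detection p, quantile normalization). Kept probes had 1 gene symbol in the platform annotation, updated by Entrez ID, and a detection p under 0.05 on at least 2 fitted arrays. The brightest probe by mean represented a gene. Groups were fitted with lmFit and eBayes, on 17 and 22 arrays. Lower bounds replace folds against groups in which every array missed the gene. An adjusted p given beside a bound is that of the limma test of the levels themselves, not of the bound. The labels call the replicates biological, and their number limits the precision. Beside the members, named genes are the called list genes with the largest change in IO-3 against SBIO-3 and in ESC BALB/c against ICM BALB/c, with the 3 genes most like each member. The fits were tested on simulated data with 100 genes changed by 1.5 log2 and 100 by 3. They recovered 96 and 100 in ESC BALB/c against ICM BALB/c (11450 genes), 48 and 95 in IO-3 against SBIO-3, and 27 and 77 for the interaction (10013 genes each). No other genes were changed there, and the noise was independent between genes. In the data 25.7%, 11.1% and 10.2% of all genes were called in these comparisons, so the recovery need not be the same. Alternatives covered background, offset, normalization, detection filter, probes, array weights, pairing and each replicate. Plots were made with matplotlib 3.10.9.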

Additional observations from a re-analysis of the deposited data

Results flagged for a closer look

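The difference between R2i and SB431542 changed between the days by 3.05 log2 for Dnmt3b, 1.82 for Dnmt3l and 1.79 for Uhrf1, each past the limits of the interaction test. Uhrf1 was 1.04 log2 higher in ESC BALB/c than in ICM BALB/c on every array. It differed by -0.32 in P15 against ICM hybrid, lower on every array but not called (adjusted p = 0.216). Such separation was not counted over all genes, and the ICM hybrid arrays were the dimmest of the second run. The difference of Uhrf1 between the runs was not tested. All groups had 2 or 3 arrays, too few for a check of single arrays.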

How the results depend on the processing

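Over 88 changes of members and 1496 alternative values, no called value changed direction, 55 lost a call and 26 gained one. Counts of called members moved by more than 1.5 times in the cases below, the cause of which was not tested. Within 1.5 times, the count of 3 ran from 2 to 3 for ESC BALB/c against ICM BALB/c, from 2 to 4 for the change of the medium difference, and was 2 with cyclic loess for IO-3 against SBIO-3 and 4 with every kept probe for IO-5 against IO-0.5, and the count of 2 was 3 in some settings for SBIO-3 against SBIO-1. For BO-9 against BO-3 the count of 1 became 0 with no background correction or an offset of 50, and 2 with every kept probe tested. For ESC BALB/c against BO-9 the count of 2 became 1 with no background correction, an offset of 50, the deposited log2 values, BO-3 replicate 1 included or when the other groups were left out of the fit, and ran from 1 to 2 as single replicates were left out. For IO-0.5 against ICM hybrid the count of 0 became 1 with cyclic loess, and ran from 0 to 1 as replicates were left out. For IO-5 against IO-0.5 the count of 3 became 1 with array weights and 0 with only the arrays compared, and ran from 1 to 3 as replicates were left out. For P15 against IO-5 the count of 0 became 1 (Tdg) with an offset of 50, cyclic loess, array weights, the replicate block (adjusted p = 0.0049), the limit of 0.05 or the share of detected probes as a covariate, and ran from 0 to 1 as replicates were left out. For P15 against P2 the count of 0 became 1 with cyclic loess, array weights, the limit of 0.05 or only the arrays compared (Tdg), and 1 with every kept probe (Dnmt3b). For P15 against ICM hybrid the count of 3 became 0 with the covariate and 1 with only the arrays compared. For IO-1 against SBIO-1 the count of 0 became 1 with the limit of 0.05. With only the arrays compared it was 0 for IO-3 against SBIO-3 and for SBIO-3 against SBIO-1. For IO-3 against IO-1 the count of 1 became 0 with cyclic loess, no filter on detection, the covariate, only the arrays compared, and each replicate left out.

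The limit of the other run, the covariate and the alternatives of IO-3 against IO-1 were chosen after seeing the data. In the first run deviations of same-numbered replicates correlated at -0.303 to 0.393, and those of differently numbered ones at -0.439 to 0.332. In the second run same-numbered ones gave -0.482 to 0.485, which groups of 2 arrays mirror by construction for differently numbered ones. Whether the numbers pair the samples cannot be told from these values. The replicate block changed no other call. The change of the medium difference in Dnmt3b was called in 20 of 20 alternatives (2.56 to 3.26), and the difference of Tet1 between BO-3 and ICM BALB/c in 18 of 18. Groups of 2 arrays and the dim ICM hybrid arrays limit what low signals, those of Tdg and Apobec1 among them, can show.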
